A study of Mus musculus with 16 samples.

Results

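The genes described here encode the proteasome: the subunits of its core and regulatory particles, the activators and the inhibitor that bind its ends, and the chaperones that assemble it. They were chosen by symbol, as protein-coding mouse genes named Psma to Psmg followed by a digit, without the immunoproteasome genes Psmb8, Psmb9 and Psmb10. This rule gave 47 of the 33072 genes of the count table. One of them, Psmc3ip, matches by its letters only, since it encodes a cofactor of meiotic recombination, and it is given apart, which left 46 proteasome genes. Of these, 8 encode the alpha ring (Psma), 8 the beta ring (Psmb), 6 the ATPase ring (Psmc), 11 the other subunits of the 19S particle (Psmd), 5 the activators (Psme), 1 the inhibitor (Psmf1) and 7 the assembly chaperones (Psmg1 to Psmg4, Psmd5, Psmd9 and Psmd10).

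RNA was sequenced from 4T1 and 67NR cells, both mammary carcinoma lines of the BALB/c mouse strain that stem from the same spontaneous tumor, of which 4T1 is metastatic and 67NR is not. Each line was cultured for 24 h with vehicle or with 15 µM CIX, an inhibitor of the cytosolic phospholipase cPLA2α, which made 4 groups of 4 biological replicates, 16 samples in total. The question behind the treatment was how inhibition of cPLA2α changes gene expression in the metastatic cells. Each line is 1 cell population grown alone, so that a difference between 4T1 and 67NR holds for these lines and not for metastatic cells in general.

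The proteasome is the main protease of the cytosol and nucleus. Its core, the 20S particle, is a barrel of outer alpha rings, which gate the entry, and inner beta rings, in which the subunits encoded by Psmb5, Psmb6 and Psmb7 hold the active sites. The 19S particle sits on the end of the barrel, where its lid and base bind ubiquitinated proteins and remove the ubiquitin, and its ATPase ring unfolds them and feeds them into the core. The activators PA28αβ (Psme1 and Psme2), PA28γ (Psme3) and PA200 (Psme4) can take the place of the 19S particle, and PI31 (Psmf1) was first described as an inhibitor of the core. When proteasome activity falls short, the transcription factor encoded by Nfe2l1 is known to raise the subunit genes together, through antioxidant response elements in their promoters.

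The core of that element, TGACNNNGC read on both strands, was therefore looked for in the RefSeq promoters, from 250 bases before to 50 after the gene start on GRCm38.p6. No promoter was found for Psma8, Psmb1, Psmb2, Psmb7, Psmc3, Psmd3, Psmd7 and Psmg2. For the other 38 of the 46 genes there were 41 promoters in all. The letters were present in 6 of them (14.6%), in Psmb5, Psmb6, Psmc6, Psmd9, Psmd12 and Psme4, beside 12.4% of all 32851 mouse promoters. The stretches around 3 of these matches are shown because they belong to members whose response to CIX differed in 4T1 cells, Psmb6 being called higher, Psmd9 called lower and Psmb5 called in neither direction. The capitals mark the match.

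Psmb5: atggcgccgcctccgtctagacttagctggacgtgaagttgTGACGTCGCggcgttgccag
Psmb6: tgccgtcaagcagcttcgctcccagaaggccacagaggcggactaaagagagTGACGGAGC
Psmd9: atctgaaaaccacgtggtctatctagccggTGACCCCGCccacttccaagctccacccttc

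The stretch of Psmb5 lies at chr14:54618023-54618083 on the minus strand, that of Psmb6 at chr11:70525296-70525356 on the plus strand and that of Psmd9 at chr5:123228129-123228189 on the plus strand, with the match starting 47, 9 and 31 bases before the gene start. Those of Psmb5 and Psmb6 lie upstream of the gene as the GENCODE annotation draws it, whereas that of Psmd9 lies inside its annotated span, upstream of a later start. In Psmd9 the match overlaps a GC box on the other strand. That box, GGGCGG, was held by 56.1% of the members' promoters and 35.7% of all promoters, CCAAT by 31.7% and 37.4%, and the heat shock element part TTCNNGAA by 4.88% and 8.52%. A match of letters is a description and says nothing of a factor's binding.

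Libraries held between 21715700 and 29450629 estimated counts, and 3 counts, the smallest level taken as detected, corresponded to 0.102 to 0.138 CPM (counts scaled to a common library total), a floor that covers counting error only. Epithelial markers (Cdh1, Epcam, Krt8, Krt18, Krt14, Cldn7 and Esrp1) reached a mean of 1 CPM for 6 of 7 genes in vehicle treated 4T1 cells, with a summed level of 2431 to 2671 CPM, and for 1 of 7 in vehicle treated 67NR cells, with 1.80 to 5.35 CPM. All 7 mesenchymal markers reached it in 67NR cells and 3 of 7 in 4T1 cells, and the epithelial genes Krt14 and Esrp1 stayed below 0.2 CPM in every 67NR library. Epithelial genes thus mark 4T1 and were nearly absent from 67NR. The summed level of the mesenchymal markers, which Vim and Fn1 dominate, was 2478 to 3233 CPM with vehicle and 4352 to 5264 CPM with CIX in 4T1 and 6141 to 7052 and 9244 to 10055 CPM in 67NR. All 3 tested in 4T1 rose, and in 67NR 1 of 7 rose (Vim) and 1 fell (Pdgfrb). Of the 6 epithelial markers tested in 4T1, Esrp1 rose and Epcam and Cldn7 fell. The part of these shifts in the results was not tested. The 5 leukocyte markers summed to at most 1.64 CPM and the 3 endothelial ones to at most 2.68 CPM in any sample. In bulk RNA, fewer cells of a kind and less RNA per cell cannot be told apart.

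Libraries of the same group differed for a set of members (the plot of genes high in single libraries). Vehicle treated 67NR replicate 13 lay more than 1.2-fold above the other 3 vehicle libraries for 7 of the 43 members tested (Psma4, Psma7, Psmb4, Psmd4, Psmd9, Psmd13 and Psmd14), and more than 1.2-fold below them for 5 (Psmb1, Psmb7, Psmd3, Psmd5 and Psmg4). Vehicle treated 4T1 replicate 11 lay above its group in the same way for 4 members, Psma4, Psma7, Psmd4 and Psmd13, all of which are also among the 7. Vehicle treated 4T1 replicate 3 was the highest of its group for 26 of 43 members and lay above the other 3 by that margin for 11. Among the CIX libraries, 67NR replicate 2 was the highest of its group for 31 members and 67NR replicate 14 the lowest for 27, each by that margin for 2, and 4T1 replicate 12 was the highest for 20, by that margin for 2. CIX replicate 4 of 4T1 lay above its group by that margin for 2 members (Psme1 and Psme2) and below it for 3 (Psmc6, Psmd1 and Psmd5). Psma7 (alpha ring) had 251, 289, 463 and 186 CPM in 4T1 vehicle replicates 3, 7, 11 and 15, and 207, 174, 195 and 473 CPM in 67NR vehicle replicates 1, 5, 9 and 13. Psmd4, a ubiquitin receptor of the 19S particle, had 209, 237, 350 and 185 CPM in the former and 212, 232, 195 and 463 CPM in the latter. In both genes 1 library stood alone at the top of its vehicle group.

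**Figure D1:**
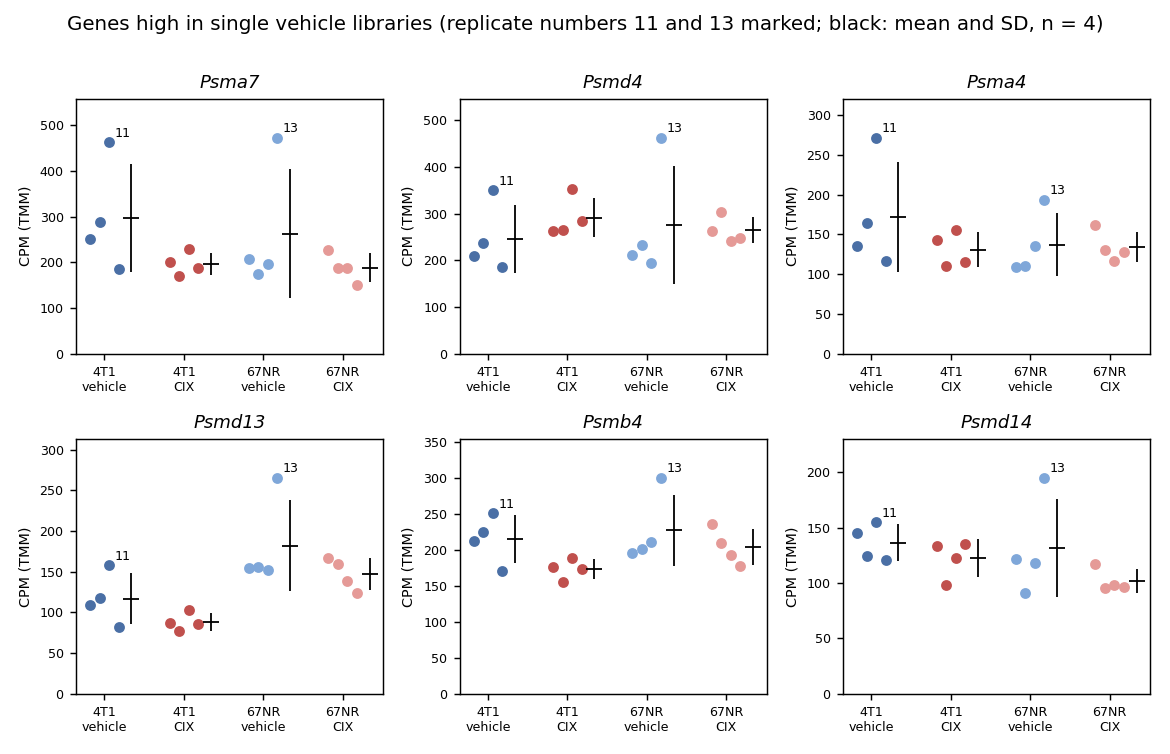
Level in CPM (TMM normalized, linear axis from 0) of 6 members in each of the 16 samples, with the mean and SD of each group (n = 4) in black. 4T1 vehicle replicate 11 and 67NR vehicle replicate 13, marked by number, are the highest of their groups for all 6 genes, with Psma7 at 463 and 473 CPM beside 149 to 289 CPM in the other 14 samples.

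Nearly all of the proteasome was expressed in every sample. Of the 46 genes, 43 passed the filter on low values in every comparison, and the other 3 are the forms known from special tissues or from gene copies. Psma8, the alpha subunit of the testis, had 0 counts in all 16 samples, Psmb11, the beta subunit of the thymus, did not exceed 0.454 CPM, and Psme2b, a copy of Psme2, did not exceed 0.321 CPM. Levels of different genes are compared on the scale of TPM, which corrects for length, here by the mean length of all annotated transcripts of a gene. In vehicle treated 4T1 cells the expressed core genes ran from Psma2 at 98.3 TPM to Psma7 at 471 TPM, a 4.79-fold range around a median of 185 TPM, and the 19S genes ran from Psmd3 at 90.3 TPM to Psmd2 at 732 TPM, an 8.10-fold range around a median of 198 TPM. In vehicle treated 67NR cells Psma2 was again the lowest of the core at 50.3 TPM, Psmb4 and Psma7 were the highest at 412 and 387 TPM, and Psmd2 again led the 19S particle at 469 TPM. The order of Psmb4 and Psma7 is not resolved, since the SD of Psma7 alone was 141 CPM on a mean of 262 CPM in that group.

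The summed TPM of the 46 genes in 4T1 depended on how libraries were scaled. As TPM it was 8673, 8038, 8362 and 7813 TPM in the vehicle libraries and 7402, 7017, 7462 and 7216 TPM in the CIX libraries, which did not overlap. In 67NR cells the sum was 6811, 6527, 6858 and 7103 TPM with vehicle and 6666, 6352, 6596 and 6339 TPM with CIX, and the groups overlapped. In 4T1 the 16 core genes went from 3242 ± 252 to 2667 ± 115 TPM (SD, n = 4), the 5 activator genes from 673 ± 13.4 to 482 ± 65.2 TPM and the 7 assembly chaperones from 296 ± 17.6 to 257 ± 3.42 TPM, each without overlap, whereas the 17 genes of the 19S particle went from 3999 ± 225 to 3855 ± 124 TPM with overlap. TPM does not carry the TMM scaling, whose factors were 0.927 to 0.972 in the CIX libraries of 4T1 and 0.985 to 1.06 in its vehicle libraries. Divided by these factors, an alternative chosen after seeing the data, the sum of the 46 genes was 7370 to 8503 with vehicle and 7295 to 8050 with CIX in 4T1, which overlapped. The core then had 3167 ± 340 and 2802 ± 138 and the chaperones 288 ± 12.9 and 270 ± 6.55, both with overlap, and the 19S particle turned direction, with 3900 ± 266 and 4052 ± 213. The activators still did not overlap, at 631 to 681 and 469 to 595. The members took 0.615 to 0.705% of the counts with vehicle and 0.583 to 0.622% with CIX in 4T1. These sums are dominated by the most abundant genes and are given as descriptions with no test.

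**Figure D2:**
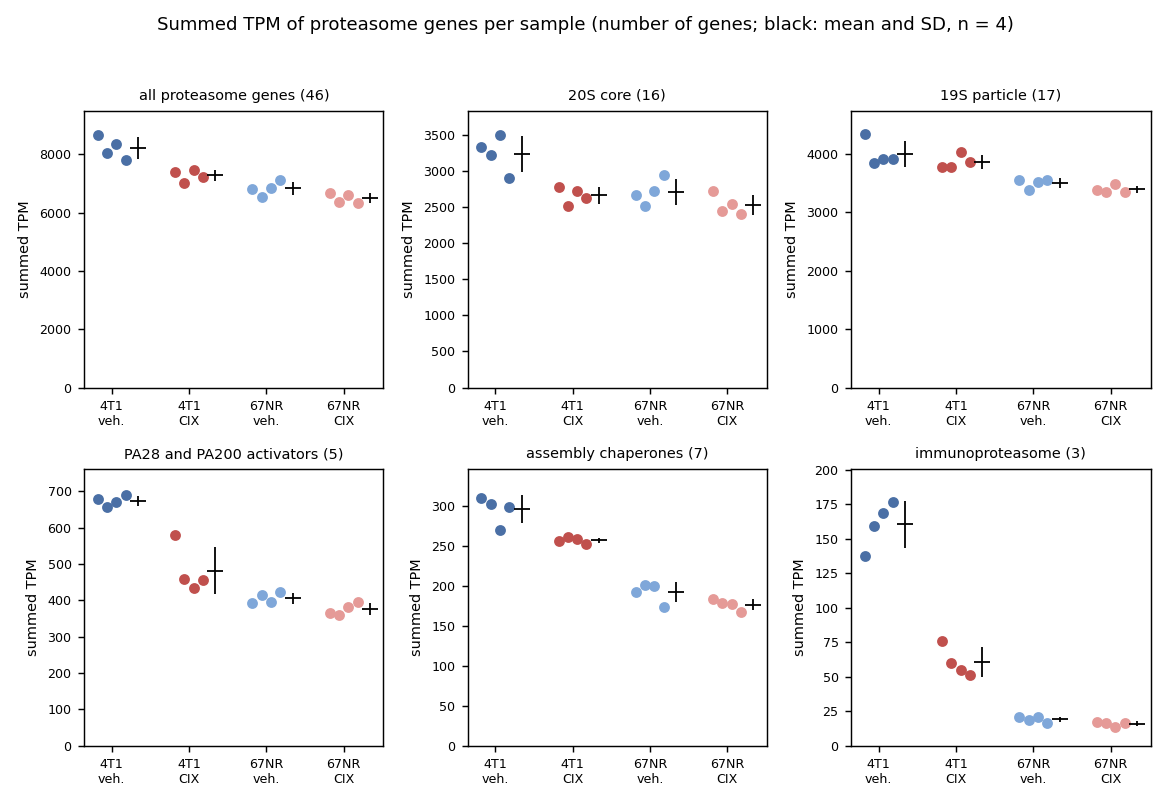
Summed TPM (linear axis from 0) of the genes of each part of the proteasome in each of the 16 samples, with the number of genes in brackets and the mean and SD of each group (n = 4) in black. In 4T1 cells the CIX samples lie below the vehicle samples for the core, the activators and the chaperones, and overlap them for the 19S particle, which had 3844 to 4333 TPM with vehicle and 3764 to 4028 TPM with CIX; divided by the TMM factors, the groups overlap for the core and the chaperones too.

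Single genes were tested with limma-voom across all expressed genes, at the threshold of the study (a Benjamini-Hochberg adjusted p below 0.001) and at 0.05. A member is said to have risen or fallen where its adjusted p was below 0.05, and those below 0.001 are named. In 4T1 cells, 18 of the 43 members changed after CIX, 7 rising and 11 falling, and 2 of them, Psmg2 and Psmd3, passed the stricter threshold. That is 41.9% of the members at 0.05 beside 42.7% of all 11659 genes tested, 16.3% rising beside 21.9%, 25.6% falling beside 20.8%, and 4.65% at 0.001 beside 9.34%. All samples of one group lay on one side of the other in 12 members, or 27.9%, beside 39.7% of all genes. In this fit the share of members that moved was near or below the background. Under the 10 other settings tried it was above that of all genes in 7 and below it in 3, from 62.8% beside 55.6% with sample quality weights, where 10 members rose and 17 fell, to 34.9% beside 42.3% with the filter of edgeR (filterByExpr). With no filter it was 28.9% beside 24.7%, and in the other 5 settings where it was above, it was so by less than 3 percentage points. The split of 7 and 11 became 5 and 14 when libraries were scaled by their totals alone, and 7 and 6 with no filter on low values. Their median log2 fold change was -0.17, beside -0.01 over all genes tested, and 31 of 43 were negative. The gap to all genes was smaller with no filter, at -0.11 beside -0.05, and the median was -0.24 beside -0.08 on log2(TPM + 0.1).

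Subunits of the same particle moved in opposite directions. In the alpha ring 2 genes fell and none of 7 rose, in the beta ring 2 rose and 1 fell, in the ATPase ring 3 of 6 fell and none rose, and among the other 19S subunits 4 rose and 1 fell (the plot of fold changes by role). Of the activators 2 of 4 fell, the inhibitor was not called, and of the 7 chaperones 1 rose and 2 fell. These counts are small and stand beside the 21.9% of all genes that rose and 20.8% that fell. Protein levels were not measured.

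**Figure D3:**
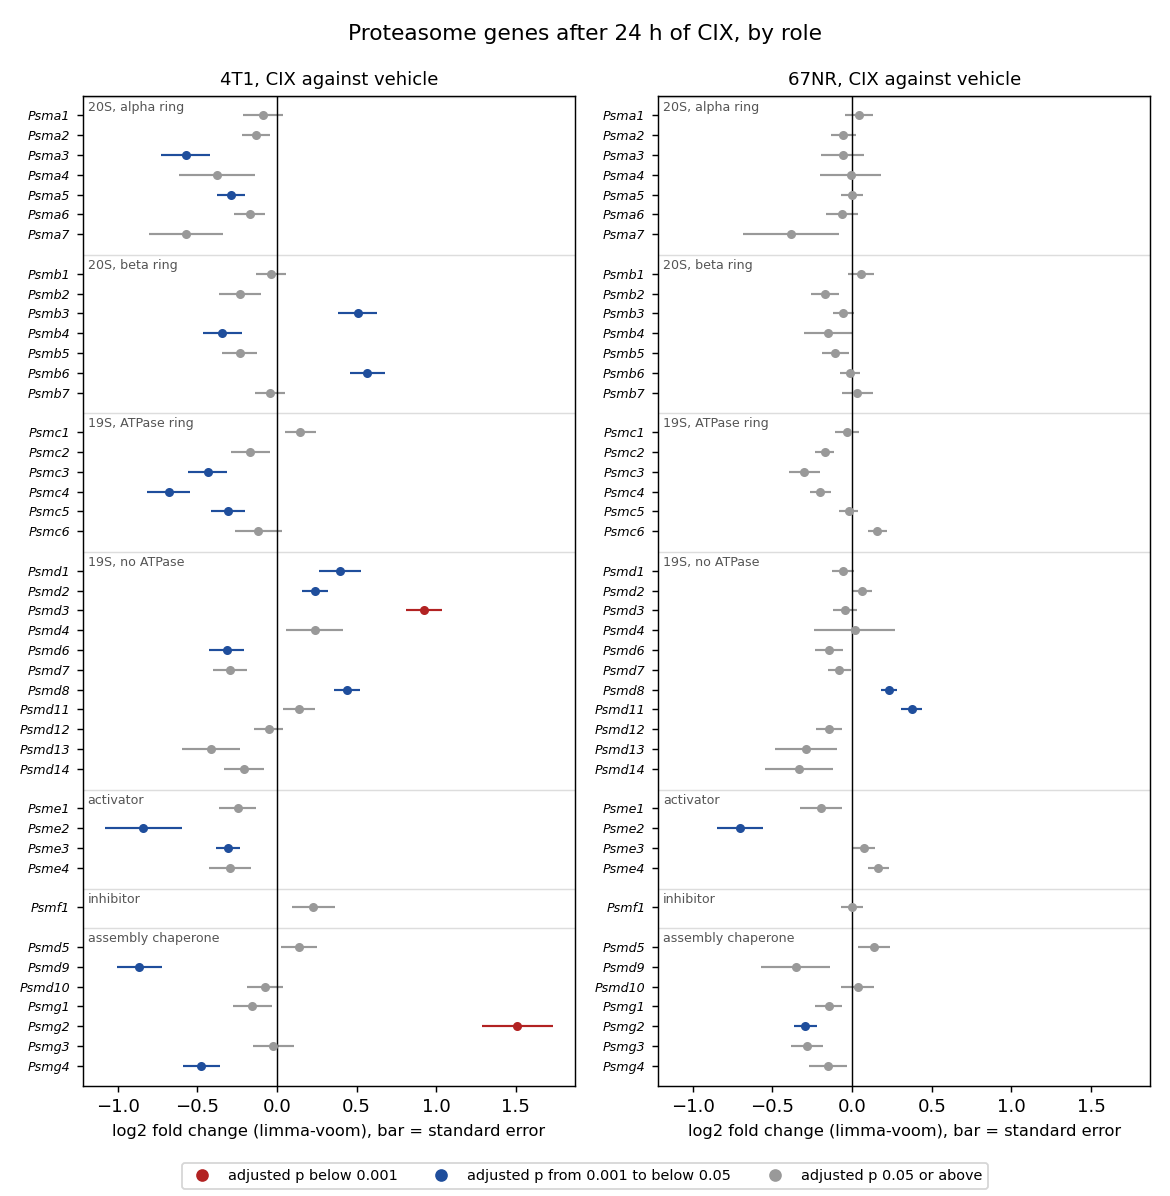
Log2 fold change of CIX against vehicle (limma-voom, n = 4 per group) for the 43 members tested, grouped by role, in 4T1 (left) and 67NR (right); bars are standard errors and the colour gives the adjusted p. In 4T1, Psmg2 at 1.51 and Psmd3 at 0.92 stand out to the right and Psmd9 at -0.86 and Psme2 at -0.84 to the left, whereas in 67NR the largest change among these genes is Psme2 at -0.70.

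The gene that rose furthest in 4T1 was Psmg2, which encodes a chaperone that pairs with the product of Psmg1 to start the alpha ring. It had 12.5, 5.45, 6.09 and 8.26 CPM in the vehicle libraries and 24.3, 21.1, 21.6 and 23.7 CPM in the CIX libraries. Every CIX library lay above every vehicle library, and the log2 fold change was 1.51 ± 0.22 (SE, 2.85-fold, adjusted p = 7.74e-04 by limma-voom). The other chaperones of the alpha ring did not follow it. Its partner Psmg1 had a mean of 28.7 ± 2.88 CPM before and 26.6 ± 2.55 CPM after treatment (SD, n = 4, adjusted p = 0.333), Psmg3 had 17.5 ± 1.88 and 17.7 ± 1.46 CPM (adjusted p = 0.9), and Psmg4, which pairs with Psmg3, fell by 0.47 on the log2 scale (SE 0.12, adjusted p = 0.0097) from 17.8 ± 1.03 to 13.2 ± 0.828 CPM.

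Psmd3, a scaffold subunit of the lid (chr11:98682554-98695979, GRCm38, plus strand), had 139, 110, 116 and 136 CPM with vehicle and 278, 239, 236 and 226 CPM with CIX. The groups were far apart, at 1.90-fold (log2 0.92 ± 0.11 SE, adjusted p = 3.20e-04). The threshold of 0.001 was met with little to spare for both genes, and edgeR's quasi-likelihood test gave Psmg2 an adjusted p of 0.0017. Psmd3 missed it when any of vehicle replicates 7, 11 and 15 or CIX replicates 8, 12 and 16 was left out, with adjusted p of at most 0.00172, and Psmg2 missed it when any library but vehicle replicate 3 was left out, with adjusted p of at most 0.00326. Both stayed below 0.05 in all 8 of these fits, with log2 fold changes of 1.35 to 1.74 for Psmg2 and 0.86 to 0.97 for Psmd3.

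Of the 3 active site genes, that of the caspase-like subunit changed in 4T1. Psmb6 had 90.4, 67.1, 86.8 and 76.3 CPM in the vehicle libraries of 4T1 and 134, 120, 120 and 115 CPM in the CIX libraries, with no overlap (log2 0.57 ± 0.11 SE, adjusted p = 0.00315). Psmb5, the chymotrypsin-like subunit, had 110, 90.9, 94.9 and 86.8 CPM with vehicle and 94.5, 81.7, 84.0 and 75.8 CPM with CIX, which overlapped (log2 -0.23 ± 0.11, adjusted p = 0.112, and 0.0462 without CIX replicate 4). Psmb7, the trypsin-like subunit, had 224, 200, 183 and 187 CPM and then 187, 204, 211 and 192 CPM, overlapping throughout (log2 -0.04 ± 0.09, adjusted p = 0.733). Of the words of 31 bases in the transcripts of Psmb5, 71.7% also occur in another gene, mostly in the copy Gm3375, so that its count could have been split, which holds for 6.24% of those of Psmb6 and 1.47% of those of Psmb7. The structural beta subunit Psmb3 rose as well, from 99.8 ± 13.8 to 146 ± 16.0 CPM (log2 0.51), and Psmb4 fell by 0.34 on the log2 scale (adjusted p = 0.0443).

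In the alpha ring Psma3 had 76.5, 82.7, 97.7 and 65.5 CPM with vehicle and 49.1, 46.7, 59.5 and 68.6 CPM with CIX. It fell by 0.57 on the log2 scale (SE 0.15, adjusted p = 0.0146), although CIX replicate 16 reached into the vehicle range. Psma5 fell by 0.29 (adjusted p = 0.0228), although 58.7% of its words of 31 bases also occur in another gene, 46.2% in Gm8394, so that its count too could have been split in every comparison. Psma7 had the same log2 fold change as Psma3, -0.57 ± 0.23, with a wide spread (297 ± 118 CPM with vehicle, 196 ± 24.7 CPM with CIX), and was not called (adjusted p = 0.0766). Without vehicle replicate 11 its log2 fold change was -0.34 (adjusted p = 0.121), and it was -0.77 and passed 0.05 without vehicle replicate 15, as did Psmd13. Of the other members high in replicate 11, Psma4 and Psmd13 were not called with or without replicate 11, and Psmd4 passed 0.05 without it (log2 0.41, adjusted p = 0.0366).

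Psmc4, one of the ATPases that unfold the substrate (chr7:28041707-28050101, minus strand), had 180, 138, 131 and 133 CPM with vehicle and 109, 90.3, 95.6 and 80.1 CPM with CIX. All CIX libraries were lower (log2 -0.68 ± 0.14 SE, adjusted p = 0.0035). Psmc3 fell by 0.43 and Psmc5 by 0.31, while Psmc1, Psmc2 and Psmc6 had log2 fold changes of 0.15, -0.17 and -0.12 and were not called. Besides Psmd3, the lid and base subunits Psmd8 (log2 0.44, adjusted p = 0.00245), Psmd1 (0.40, adjusted p = 0.0379) and Psmd2 (0.24, adjusted p = 0.0416) rose, and Psmd6 fell by 0.32 (adjusted p = 0.0404). Psmc1 and Psmd2 share 32.2% and 31.6% of their words of 31 bases with other genes.

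**Figure D4:**
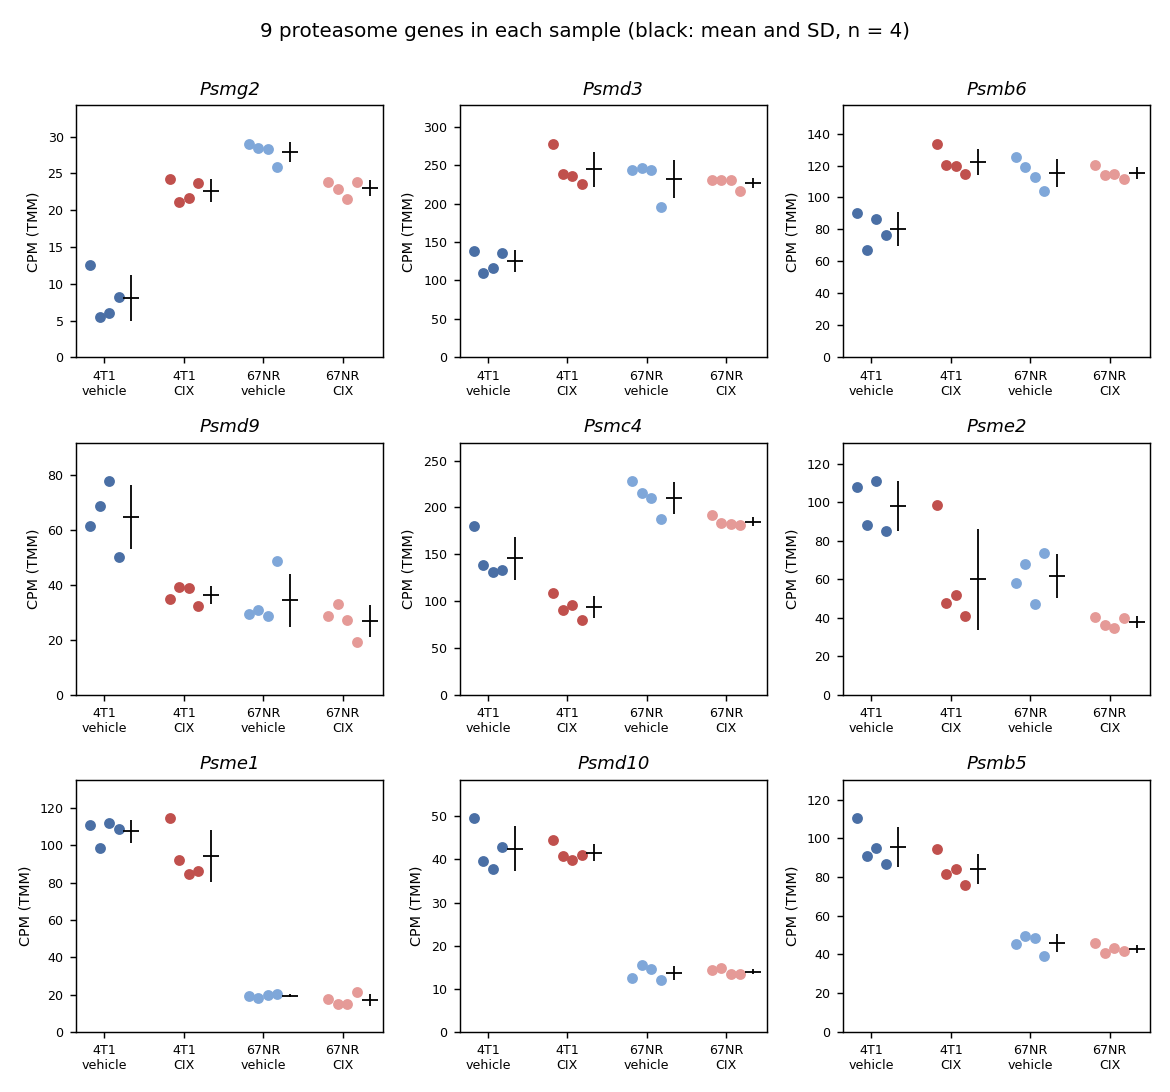
Level in CPM (TMM normalized, linear axis from 0) of 9 members in each of the 16 samples, with the mean and SD of each group (n = 4) in black. Psmg2, Psmd3 and Psmb6 were higher and Psmd9 and Psmc4 lower in every CIX library of 4T1 than in every vehicle library, one CIX library of Psme2 stayed at 98.5 CPM, and Psme1, Psmd10 and Psmb5 differed between the lines.

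Psmd9 encodes a chaperone of the ATPase ring. It had 61.5, 68.7, 77.7 and 50.2 CPM with vehicle in 4T1 and 34.9, 39.3, 38.6 and 32.2 CPM with CIX, again with no overlap, and fell by 0.86 on the log2 scale (SE 0.14, adjusted p = 0.00138). The other chaperones of that ring were not called in 4T1. Psmd10, the oncoprotein gankyrin, had 42.5 ± 5.15 and 41.6 ± 2.02 CPM (SD, n = 4, adjusted p = 0.624), and Psmd5 had 99.7 ± 6.41 and 114 ± 14.2 CPM (adjusted p = 0.346).

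Of the activators, Psme2, the beta subunit of PA28αβ, had 108, 88.3, 111 and 85.1 CPM with vehicle in 4T1 and 98.5, 47.7, 52.0 and 41.1 CPM with CIX. CIX replicate 4 alone lay within the vehicle range. The gene fell by 0.84 on the log2 scale (SE 0.24, adjusted p = 0.0197), by 1.11 without that library (adjusted p = 5.00e-04), and lost the call at 0.05 without CIX replicate 8, 12 or 16. Its partner Psme1 is its neighbour (chr14:55578123-55581529, plus strand, beside Psme2 at chr14:55587441-55591113, minus strand) and had 111, 98.4, 112 and 109 CPM and then 115, 92.2, 84.7 and 86.3 CPM (log2 -0.25 ± 0.12, adjusted p = 0.117). CIX replicate 4 was again the highest, and without it Psme1 passed 0.05 (log2 -0.35, adjusted p = 0.0131). A share of 33.5% of the words of 31 bases in Psme2 also occurs in Psme2b, whose own count was near 0.

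Psme3, the nuclear PA28γ, had 134, 141, 140 and 134 CPM with vehicle in 4T1 and 114, 114, 116 and 114 CPM with CIX. This was a small change with little spread (log2 -0.31 ± 0.08 SE, adjusted p = 0.00985). Psme4 had 108, 124, 113 and 122 CPM and then 83.0, 95.1, 93.1 and 126 CPM, which overlapped through CIX replicate 16 (log2 -0.29 ± 0.13, adjusted p = 0.099, and -0.41 with adjusted p = 0.017 without that library). The inhibitor Psmf1 had 26.5, 19.5, 20.7 and 19.9 CPM with vehicle and 30.3, 25.8, 24.5 and 24.1 CPM with CIX (log2 0.23 ± 0.14, adjusted p = 0.205). The high vehicle value of 26.5 CPM came from replicate 3, and the groups overlapped through it.

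The call at 0.05 was kept by 10 of the 18 members whichever library of 4T1 was left out: Psma3, Psmb3, Psmb6, Psmc4, Psmd3, Psmd8, Psmd9, Psme3, Psmg2 and Psmg4. Psmb4, Psmc5, Psmd1, Psmd2 and Psmd6 each lost it without 6 or more of the 8 libraries in turn, and the number of members called fell to 10 without CIX replicate 8 and to 12 without vehicle replicate 7 or CIX replicate 16.

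In 67NR cells fewer proteasome genes were called. No member passed 0.001 by limma-voom or edgeR and 3 did by DESeq2 (Psmd8, Psmd11 and Psme2), beside 0.389% of all 11560 genes by limma-voom. DESeq2 called 8.98% of all genes at that threshold and 6.98% of the members. At an unadjusted p under 0.05 there were 10 members (23.3%) by limma-voom, beside 32.8% of all genes. At an adjusted p below 0.05, 4 of the 43 changed (9.30%, beside 17.8% of all genes), 2 rising (4.65%, beside 8.51%) and 2 falling (4.65%, beside 9.26%). Groups did not overlap in 7 members (16.3%), beside 23.3% of all genes. Without vehicle replicate 13, which stood apart in many members, 7 were called, with Psmc2, Psmc4 and Psmg3 added. Without CIX replicate 6 or vehicle replicate 9, 2 were called. With all 16 samples in one fit 2 rose and none fell, on log2(TPM + 1) and log2(TPM + 0.1) 1 rose and 1 fell, and with sample quality weights 2 rose and 5 fell.

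The genes that rose were both of the 19S particle. Psmd11, a lid subunit that joins the lid to the base, had 138, 131, 136 and 138 CPM with vehicle in 67NR and 172, 175, 195 and 169 CPM with CIX (log2 0.37 ± 0.07 SE, adjusted p = 0.00653). Psmd8 had 245, 236, 227 and 224 CPM and then 275, 281, 273 and 277 CPM (log2 0.23 ± 0.05, adjusted p = 0.016). Neither gene overlapped between the groups. Psmd8 was the member that rose in both lines, although its call in 67NR was lost without CIX replicate 6 or vehicle replicate 9.

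Psme2 fell in 67NR as well as in 4T1, but its call in 67NR and that of Psmg2 were lost with all 16 samples in one fit. It had 58.2, 68.1, 47.1 and 73.4 CPM with vehicle and 40.5, 36.1, 34.4 and 39.8 CPM with CIX, a fall by 0.70 on the log2 scale (SE 0.15, adjusted p = 0.0128) with no overlap. Psmg2 had 29.0, 28.5, 28.3 and 25.9 CPM and then 23.8, 22.9, 21.5 and 23.8 CPM, falling by 0.29 (SE 0.07, adjusted p = 0.0236), which is the direction opposite to that in 4T1. Leaving out any of vehicle replicates 1, 5 and 9 or CIX replicates 6 and 10 ended this call.

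Other members named above showed no call in 67NR. Psmb5 had 45.6, 49.8, 48.4 and 39.3 CPM with vehicle and 45.7, 40.9, 43.1 and 41.6 CPM with CIX. Psmb6 had 125, 119, 113 and 104 CPM and then 120, 114, 115 and 112 CPM, and Psmb7 had 133, 123, 129 and 97.3 CPM and then 136, 116, 125 and 118 CPM. All 3 active site genes overlapped between the groups, with adjusted p of 0.418, 0.905 and 0.855. Psmd3 had 244, 247, 244 and 196 CPM and then 230, 230, 231 and 217 CPM. Psmc4 had 228, 216, 210 and 187 CPM and then 192, 183, 183 and 181 CPM, where the CIX libraries were low but overlapped with vehicle replicate 13 (log2 -0.20 ± 0.06, adjusted p = 0.061). Psmd9 had 29.3, 30.7, 28.7 and 48.7 CPM and then 28.6, 32.9, 27.0 and 19 CPM, with its highest value again in vehicle replicate 13. The other activators and the inhibitor overlapped between the groups as well, except for Psme4. Psme1 had 19.3, 18.1, 19.5 and 20.3 CPM and then 17.8, 14.7, 14.8 and 21.5 CPM. Psme3 had 131, 128, 134 and 148 CPM and then 140, 144, 150 and 140 CPM, and Psmf1 had 35.2, 37.0, 36.5 and 32.2 CPM and then 36.6, 34.1, 37.3 and 34.2 CPM. Psme4 had 101, 102, 113 and 104 CPM with vehicle and 126, 115, 120 and 116 CPM with CIX, which did not overlap but missed the threshold (log2 0.16 ± 0.06, adjusted p = 0.112). Psma7 had 227, 188, 186 and 149 CPM with CIX and the most negative value after Psme2, -0.38 ± 0.30 (adjusted p = 0.42), and this rested on vehicle replicate 13 at 473 CPM, since it was -0.05 without it. None of the other members that stood apart in that library was called in 67NR with or without it. The median log2 fold change of the 43 members was -0.06, beside -0.01 over all genes.

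Psmc3ip, which is no proteasome gene, had 36.0, 33.9, 33.7 and 32.4 CPM in the vehicle libraries of 67NR and 21.1, 19.4, 16.4 and 15.3 CPM in the CIX libraries. It fell by 0.93 on the log2 scale (SE 0.10, adjusted p = 0.00131) with no overlap, and had 11.9, 11.4, 11.5 and 10.3 CPM with vehicle and 16.6, 11.5, 9.96 and 12.4 CPM with CIX in 4T1 (adjusted p = 0.715), a difference of 1.01 between the responses (adjusted p = 0.0013).

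Whether the response itself differed between the lines was tested with an interaction term over all 16 samples. It shares the samples of the comparisons above and is no second support for them. Of the 43 members 2 passed 0.001 (4.65%, beside 7.86% of all 12605 genes), and 9 passed 0.05 (20.9%, beside 29.4%), 5 with the response higher in 4T1 (11.6%, beside 15.1%) and 4 with it lower (9.30%, beside 14.2%), a split that became 4 and 5 with libraries scaled by their totals alone, 5 and 1 with no filter on low values, and 9 and 6 with sample quality weights (34.9%, beside 39.9% of all genes). The difference was 1.80 ± 0.22 (log2, SE) for Psmg2 (adjusted p = 3.85e-05) and 0.96 ± 0.14 for Psmd3 (adjusted p = 1.19e-04), and these were the genes that passed 0.001 in all 16 fits that left out 1 library each. Psmb6 differed by 0.58 (adjusted p = 0.00271), Psmb3 by 0.56 (0.00503) and Psmd1 by 0.45 (0.0412) towards 4T1. Psme3 differed by -0.38 (0.00327), Psmc4 by -0.48 (0.0232), Psme4 by -0.46 (0.0285) and Psma5 by -0.29 (0.05, rounded). Of these calls, Psmd1 was lost in 13, Psma5 in 12, Psme4 in 6 and Psmc4 in 1 of the 16 fits that left out 1 library, the last without 4T1 CIX replicate 16. Psma3 and Psmd9 had the lowest differences, both -0.51 (adjusted p = 0.0763 and 0.16), and were called when 67NR vehicle replicate 13 was left out. In 67NR Psma3 had 82.8, 68.4, 87.1 and 104 CPM with vehicle and 94.2, 77.2, 83.6 and 74.0 CPM with CIX, which overlapped. For Psme2, which fell in both lines, the difference was -0.14 ± 0.30 (adjusted p = 0.784), with a standard error too wide to exclude unequal responses. For Psmd8 it was 0.21 ± 0.08 (adjusted p = 0.0802).

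The lines also differed in proteasome genes when both were given vehicle. Of the 43 members 26 differed between vehicle treated 4T1 and 67NR cells (60.5%, beside 67.4% of all 11040 genes), and 15 passed 0.001 (34.9%, beside 40.0%). The share at 0.05 was above that of all genes with all 16 samples in one fit, at 74.4% beside 68.7%, and with no filter, at 57.8% beside 47.4%. In 4T1, 18 were higher (41.9%, beside 33.3%) and 8 lower (18.6%, beside 34.1%), and the groups did not overlap in 25 (58.1%, beside 61.7%). The median log2 difference was 0.24 towards 4T1, beside -0.01 over all genes. This comparison uses the vehicle samples of 4T1 again, so its values stand beside those of the CIX comparison and are not independent of them.

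**Figure D5:**
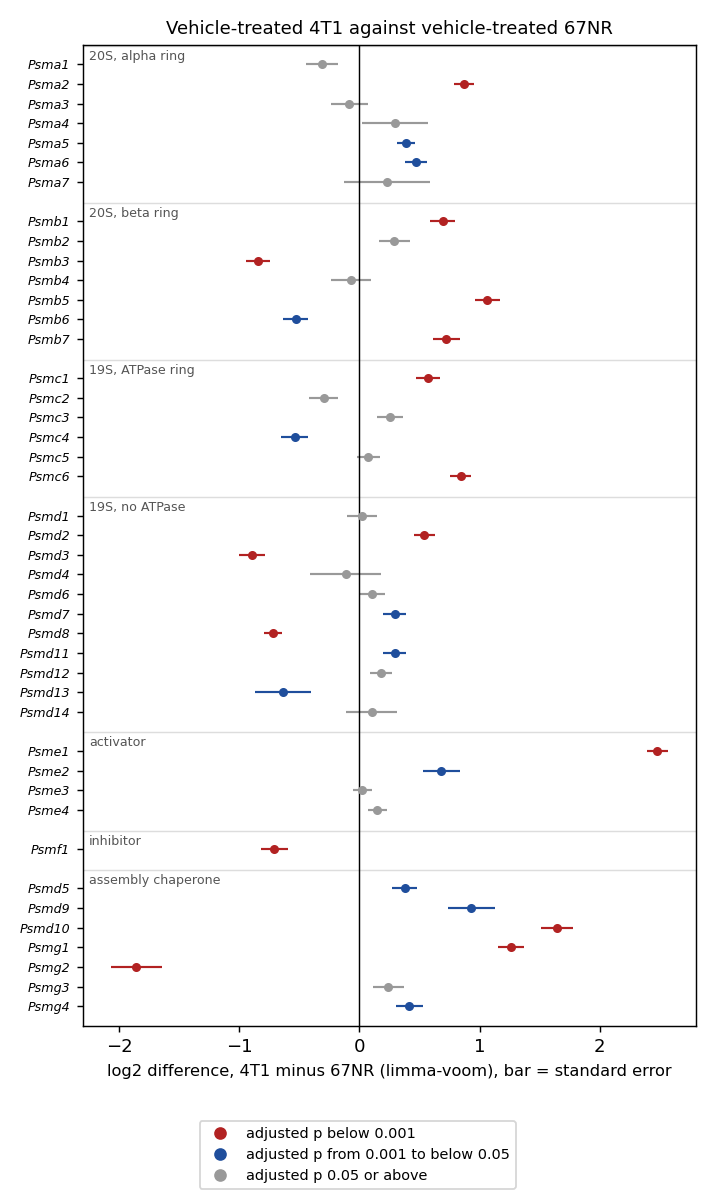
Log2 difference between vehicle treated 4T1 and vehicle treated 67NR cells (limma-voom, n = 4 per group, positive where higher in 4T1) for the 43 members tested, grouped by role; bars are standard errors and the colour gives the adjusted p. Psme1 at 2.48, Psmd10 at 1.65 and Psmg1 at 1.26 lie furthest to the right and Psmg2 at -1.86 and Psmd3 at -0.89 furthest to the left.

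The largest difference was in Psme1, the alpha subunit of PA28αβ, with 108 ± 6.25 CPM in 4T1 and 19.3, 18.1, 19.5 and 20.3 CPM in 67NR (log2 2.48 ± 0.09 SE, adjusted p = 9.89e-08). Its partner Psme2 was higher by less, at 98.0 ± 13.2 and 61.7 ± 11.6 CPM (log2 0.68 ± 0.15, adjusted p = 0.00336), and Psme3 and Psme4 were not called. Psmd10 (X:140948429-140956728, minus strand) had 49.5, 39.7, 37.8 and 43.0 CPM in 4T1 and 12.4, 15.4, 14.6 and 11.9 CPM in 67NR (log2 1.65 ± 0.13, adjusted p = 5.42e-06). Psmg1 had 32.8, 28.4, 26.5 and 26.9 CPM in 4T1 and 12.1, 12.4, 11.8 and 11.4 CPM in 67NR (log2 1.26 ± 0.11, adjusted p = 8.35e-06). In Psme1, Psmd10 and Psmg1 the lines lay far apart, and CIX made no called change in either line with all libraries in the fit.

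The chaperone pair of the alpha ring was thus unequal in opposite ways. Psmg1 was 2.40-fold higher in vehicle treated 4T1, while Psmg2 was lower there by 1.86 on the log2 scale (8.07 ± 3.18 against 27.9 ± 1.39 CPM, adjusted p = 5.13e-05). With CIX, Psmg2 stood at 22.7 ± 1.54 CPM in 4T1 beside 23.0 ± 1.10 CPM in 67NR. Psmd3 likewise stood at 125 ± 14.2 CPM in vehicle treated 4T1 beside 233 ± 24.7 CPM in 67NR (log2 -0.89 ± 0.11, adjusted p = 7.46e-05), and at 245 ± 22.8 beside 227 ± 6.68 CPM with CIX. In 67NR the library that stood apart, vehicle replicate 13, had the lowest Psmd3 at 196 CPM, and without it the difference was -1.02.

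Among the active sites Psmb5 and Psmb7 were higher in 4T1 (log2 1.07 ± 0.10, adjusted p = 1.79e-05, and 0.72 ± 0.11, adjusted p = 3.02e-04) and Psmb6 was lower (-0.53 ± 0.10, adjusted p = 0.00148). Psmb1 was higher at 0.69 and Psmb3 lower at -0.84. In the alpha ring Psma2, Psma5 and Psma6 were higher, by 0.87, 0.39 and 0.47, and no gene was lower. The ATPases Psmc6 (0.84) and Psmc1 (0.57) were higher and Psmc4 (-0.54) lower. Of the other 19S subunits Psmd2, Psmd7 and Psmd11 were higher, by 0.54, 0.30 and 0.29, and Psmd3, Psmd8 (-0.72) and Psmd13 (-0.64) lower. The inhibitor Psmf1 was lower in 4T1, at 21.7 ± 3.26 beside 35.2 ± 2.15 CPM (log2 -0.71 ± 0.11, adjusted p = 4.38e-04), and the chaperones Psmd9, Psmd5 and Psmg4 were higher, by 0.93, 0.38 and 0.42. The calls of Psmd7 and Psmd11 were lost without any of 67NR vehicle replicates 1, 5 and 9, that of Psmd7 also without replicate 13, that of Psmd13 without any of 4T1 vehicle replicates 3, 7 and 15, and that of Psmd5 without 67NR vehicle replicate 1. Without 67NR vehicle replicate 13, Psmd13 was lower by less (log2 -0.49, adjusted p = 0.0465) and Psmd9 higher by more (log2 1.06, adjusted p = 3.65e-04). Without 4T1 vehicle replicate 15 the median of the members was 0.36, and 10 members passed 0.001 when 67NR vehicle replicate 1, 5 or 9 was left out.

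In no comparison were Psma1, Psma4, Psma7, Psmb2, Psmc2, Psmd4, Psmd12, Psmd14 and Psmg3 called, and 23 of the 43 members were called neither in a CIX comparison nor in the difference of the responses. Some of them varied widely within a group: in vehicle treated 67NR the level was 137 ± 39.6 CPM (SD, n = 4) for Psma4, 262 ± 141 CPM for Psma7, 275 ± 126 CPM for Psmd4 and 132 ± 44.4 CPM for Psmd14. How many of all genes were called in none of these comparisons was not counted. The numbers of members not called therefore stand without a background.

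The immunoproteasome genes, which the rule leaves out, encode the beta subunits that replace the standard active sites after interferon. In 4T1 2 of the 3 fell. Psmb10, the counterpart of Psmb7, had 53.0, 65.8, 77.0 and 64.5 CPM with vehicle and 22.3, 18.0, 20.1 and 13.2 CPM with CIX, a fall by 1.88 on the log2 scale (adjusted p = 1.06e-04). Psmb8, the counterpart of Psmb5, fell by 0.64 (adjusted p = 0.00968), and Psmb9, that of Psmb6, had 3.63 ± 0.646 and 2.74 ± 0.353 CPM (adjusted p = 0.128). In 67NR Psmb10 had 12.0 ± 1.07 and 9.87 ± 1.32 CPM (adjusted p = 0.126), while Psmb8 and Psmb9 were too low to test.

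Genes that work with the proteasome were followed as well, and their counts stand beside the 21.9% of all genes rising and 20.8% falling in 4T1 and the 8.51% and 9.26% in 67NR. Of 14 proteasome-bound and assembly proteins, 3 rose and 3 fell in 4T1, and 2 rose and 1 fell in 67NR. Zfand2a, a stress-induced protein that binds the 19S particle, had 393, 408, 462 and 346 CPM with vehicle in 4T1 and 173, 227, 256 and 217 CPM with CIX, a fall by 0.93 (log2, adjusted p = 5.38e-04), and rose by 0.58 in 67NR (adjusted p = 0.0369), a difference of -1.51 between the lines (adjusted p = 8.60e-05). Its call at 0.05 in 67NR was kept in 3 of the 8 fits that left out 1 library. Sem1, the smallest lid subunit, rose in 4T1 from 55.4 ± 19.8 to 103 ± 14.3 CPM (log2 0.89, adjusted p = 0.00845). Usp14, a deubiquitinase that acts on the proteasome, had 61.5 ± 2.92 CPM in vehicle treated 4T1 and 751 ± 19.7 CPM in 67NR, a log2 difference of -3.61, and fell by 0.71 after CIX in 67NR (adjusted p = 0.00258).

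Of 12 p97 and shuttle proteins, which deliver ubiquitinated substrates, 4 rose and 1 fell in 4T1 and 1 rose in 67NR. Ubqln1, a shuttle that binds the 19S particle, had 65.0, 48.3, 55.0 and 66.0 CPM with vehicle in 4T1 and 172, 181, 177 and 196 CPM with CIX (log2 1.60, adjusted p = 4.45e-05), beside 77.6 ± 7.92 and 87.1 ± 5.13 CPM in 67NR. Nsfl1c, the p97 cofactor p47, rose in 4T1 from 29.5 ± 3.81 to 71.2 ± 6.65 CPM (log2 1.22, adjusted p = 1.31e-04). Faf1, another p97 cofactor, varied from 73.7 to 394 CPM among the CIX libraries of 4T1 and was not called (adjusted p = 0.129).

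Of 10 genes of the NFE2L1 control, 2 rose and 2 fell in 4T1, and of the 9 tested in 67NR 1 rose and 3 fell. Nfe2l1 itself rose in both lines, with 453, 396, 418 and 429 CPM in vehicle treated 4T1 and 501, 787, 839 and 725 CPM with CIX (log2 0.68, adjusted p = 0.00577), and with 317 ± 12.7 and 462 ± 62.0 CPM in 67NR (log2 0.52, adjusted p = 0.00708). Nfe2l3, its close relative, rose in 4T1 from 4.23 ± 0.371 to 11.4 ± 3.01 CPM (log2 1.34, adjusted p = 0.0017) and did not exceed 0.157 CPM in 67NR. Mafk, a small partner factor, fell in both, by 0.74 (adjusted p = 4.52e-04) and 0.37 (adjusted p = 0.00631). Beside this rise of Nfe2l1, 7 members rose and 11 fell in 4T1, and 2 rose and 2 fell in 67NR, shares of rising genes below those over all genes. Of the 6 genes with the antioxidant response letters Psmb6 rose in 4T1, Psmd9 fell and the other 4 were not called. Psmg2, Psmd3 and Psmc3, which were called in 4T1, had no promoter to search for the letters. A part of Nfe2l1 in these values was not tested.

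Ubiquitin is made as fusions and activated by E1 enzymes before it marks substrates. Rps27a, which yields a ribosomal protein and ubiquitin, rose in 4T1 from 417 ± 90.2 to 879 ± 119 CPM (log2 1.04, adjusted p = 0.00102), and Uba1, the main ubiquitin-activating enzyme, rose in 4T1 by 0.51 (adjusted p = 5.67e-04) and in 67NR by 0.29 (adjusted p = 0.0169).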

How the data were processed

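RNA of 4T1 and 67NR cells, with 4 biological replicates per group of line and treatment, was analysed. The authors quantified the reads with salmon (version 0.12 in the submitters' processing notes) on Ensembl GRCm38 and summed transcripts to genes with tximport, and the deposited values are estimated counts per gene, not normalized. The processing notes name the human build GRCh38, whereas the gene identifiers are mouse. How tximport scaled the counts is not given in the sources used here. The kit keeps strand. Which strand setting was used in quantification is not given in the sources used here.

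The expected counts were rounded. TPM was approximated from the mean transcript length in GENCODE M21, and genes with TPM below 1 in more than 3 samples of a comparison were left out. The study's filter has the same limits, but whether it was applied within a comparison is not given in the sources used here. Comparisons used R 4.3.3, with TMM factors from edgeR 4.0.16 and voom weights and moderated tests from limma 3.58.1. The difference of the responses was the interaction term in a fit of all 16 samples. Alternatives were edgeR's quasi-likelihood test, DESeq2 1.42.0, other scalings and filters, sample weights, log2(TPM + 1) and log2(TPM + 0.1), and leaving out single libraries. P-values were adjusted over all genes tested. CPM values are TMM normalized over all 16 samples. Replicates of a group differed by a mean chi-square of at least 16.7 per gene, so none was a repeat of another. Replicate numbers in the labels are not shared between groups. The fits were tested on simulated data.

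The members, lists and tests were chosen with earlier results of these data known. By rule, values in every sample were printed for Psmb5, Psmb6, Psmb7, the activators, Psmf1 and the 3 highest and 3 lowest members of each comparison by log2 fold change, in the groups of that comparison, and for lists values are given for the 3 genes with the largest change, of which 1 result is not reported here. Other members named were chosen after their values were seen. Words of 31 bases shared between transcripts of different genes were counted in the GENCODE transcripts. No promoter was matched for 8 members, and protein sequences were not used here.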

Additional observations from a re-analysis of the deposited data

Results flagged for a closer look

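Within groups of 4 libraries, 1 library stood far from the other 3 in 7 of 76 groups tested, where chance alone flags about 1 in 20 (3.8 of 76). Vehicle treated 67NR replicate 13 was such a library for 3 genes: Psma7 at 473 CPM (others 174 to 207 CPM), Psmd9 at 48.7 CPM and Psmd3, low, at 196 CPM. The others were Psmc4 in 4T1 vehicle replicate 3 at 180 CPM and in 67NR CIX replicate 2 at 191.9 CPM, Psmd3 in 67NR CIX replicate 14 at 217 CPM, and Psme3 in 4T1 CIX replicate 12 at 116 CPM, where the spread of the group was small.

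The response to CIX differed between the lines for 10 genes by the interaction term of limma-voom (adjusted p below 0.05). As the log2 response in 4T1 minus that in 67NR, the difference was 1.80 for Psmg2, 0.96 for Psmd3, 0.58 for Psmb6, 0.56 for Psmb3, 0.45 for Psmd1 and 1.01 for Psmc3ip, and it was -0.48 for Psmc4, -0.46 for Psme4, -0.38 for Psme3 and -0.29 for Psma5. Psma5 lay at the threshold, with an adjusted p of 0.05 after rounding.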

How the results depend on the processing

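Counts of members depended on the test. For single genes, directions were followed in 44 results only, many of them chosen as the highest or lowest of a comparison. Genes chosen so are less free to turn. Members outside these results could turn when single libraries were left out. The log2 fold change of Psma1 in 4T1 then ran from -0.17 to 0.018, and that of Psmd4 in 67NR from -0.12 to 0.31. In 4T1, 2 members passed 0.001, beside 1 by edgeR, 8 by DESeq2, 8 with all 16 samples in one fit, 8 with sample quality weights and 1 on log2(TPM + 1) or log2(TPM + 0.1), and 18 passed 0.05. In 67NR none passed 0.001 by limma-voom, 3 did by DESeq2, and 4 passed 0.05. For the difference of the responses 2 passed, beside 4 by DESeq2, 6 with quality weights and 1 on either log2(TPM) scale, and 9 passed 0.05. Between the vehicle treated lines 15 passed 0.001, beside 21 by DESeq2, 20 with all 16 samples in one fit, 20 with quality weights and 12 on log2(TPM + 0.1), and 26 passed 0.05. By DESeq2 at 0.001, the members' share was 18.6% beside 26.6% of all genes in 4T1 and 6.98% beside 8.98% in 67NR. It was 9.30% beside 15.7% for the difference and 48.8% beside 52% between the lines. For the other alternatives, shares over all genes at 0.001 are not given. The numbers rising and falling at 0.05 with quality weights were 10 and 17 in 4T1, 2 and 5 in 67NR and 9 and 6 for the difference, and with no filter 7 and 6, 2 and 1, and 5 and 1. Leaving out single libraries gave 0 to 2 members in 4T1, 0 in 67NR, 2 for the difference and 10 to 16 between the lines, where the median log2 difference ran from 0.15 to 0.36. Of 890 alternative values of 44 single-gene results, 815 kept their direction and their side of 0.001, 29 passed it newly, 22 no longer passed and 24 turned direction, all of these last in results near 0 that were not called. In 4T1 the log2 fold change of Psmb7 was 0.017 with no filter and -0.092 to 0.012 without single libraries. In 67NR that of Psmb6 was 0.0037 with no filter, 0.0072 in the common fit and -0.049 to 0.019 without single libraries, that of Psmb7 was -0.052 with quality weights and -0.055 to 0.074, and that of Psmf1 was 0.0019 by DESeq2, 0.0018 with DESeq2 size factors, 0.016 with no filter, 0.020 in the common fit, 0.010 and 0.011 on log2(TPM + 1) and log2(TPM + 0.1), and -0.031 to 0.028. The difference of the responses for Psmb7 was 0.051 with quality weights and -0.13 to 0.024 without single libraries, for Psme1 -0.15 to 0.064 and for Psme2 -0.40 to 0.021. The cause of these shifts was not tested. No paired analysis was run, because the replicate numbers in the labels are shared by no groups and the labels name no pairs. Blocks of consecutive sample numbers were not fitted either. Dividing TPM by the TMM factors, chosen after seeing the data, turned the direction of the summed 19S subunits in 4T1, as given with the sums.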
